A study of Mus musculus with 15 samples.

Results

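Retinoic acid signalling was followed through 9 genes that span the pathway from uptake of vitamin A to its nuclear receptors: Stra6, Rbp4, Crabp1, Crabp2, Aldh1a1, Aldh1a2, Cyp26b1, Rara and Rarb. A gene was taken when the array held a probe set that maps to its symbol and no other, and each of the 9 had exactly 1 such probe set. They were 9 of 19938 genes with a symbol of their own. Of the 9, 6 passed the filter on low values, which asked for a value above the median of all values (log2 6.86) on at least 3 arrays, as did 11885 genes in all. Rbp4, Aldh1a1 and Cyp26b1 did not pass.

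Transcripts were measured in kidney cells sorted for green fluorescence from newborn CD-1 mice that carry Tg(Crym-EGFP)82Gsat, a bacterial artificial chromosome transgene in which Crym sequence drives EGFP. All 15 samples came from this 1 line, with no wild type or other reporter among them, and the pups had been raised by CD-1 foster mothers. Each sample was a pool of about 4 kidneys, with 3 pools for each of the postnatal days P0, P1, P2, P3 and P4, and sex is given as unknown. The labels give cap mesenchyme, where the nephron progenitors reside, for the 12 pools of P0 to P3 and renal vesicle, the early epithelium built from them, for the 3 pools of P4, so compartment and age cannot be told apart at P4. The design text speaks of cap mesenchyme on all 5 days, and no source used here describes a gate that would separate the 2 compartments. The sources do not say whether pools of the same age were drawn from different litters, and p-values here cover only the pool-to-pool spread, which may be technical. In sorted pools, fewer cells of a type and less RNA per cell cannot be told apart.

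Vitamin A circulates as retinol on its carrier RBP4 and is taken up through the receptor STRA6. Inside the cell, retinol is oxidised to retinaldehyde and then, by the ALDH1A enzymes, to retinoic acid, which the CRABP proteins bind in the cytoplasm and the CYP26 enzymes break down. Retinoic acid binds the receptors RARA, RARB and RARG, which act in pairs with RXR proteins on short DNA repeats near target genes, and in the embryonic kidney this signal is known for its role in the stroma, where it supports growth of the ureteric bud.

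Of the members with a promoter window, Rarb was the 1 with such a repeat, so its promoter is shown first. The 250 bases that end just before its RefSeq start site were read from the GRCm38.p6 assembly (chr14:16575477-16575726, minus strand), and capitals mark the 17 bases of a direct repeat of the receptors' recognition motif.
Rarb: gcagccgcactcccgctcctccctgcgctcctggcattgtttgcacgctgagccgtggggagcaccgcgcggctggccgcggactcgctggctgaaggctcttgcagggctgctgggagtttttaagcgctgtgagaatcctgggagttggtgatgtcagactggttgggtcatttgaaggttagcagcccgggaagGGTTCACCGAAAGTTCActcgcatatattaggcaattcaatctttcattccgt
The search took 4 forms of the motif (AGGTCA or GGGTCA or AGTTCA or GGTTCA) in any pair, in the same orientation, separated by 1, 2 or 5 bases, on both strands. In Rarb the copies GGTTCA and AGTTCA lie 5 bases apart, from position -53 to -37 before the start. Such a repeat with spacing 5 was present in 29 of 32851 mouse promoter windows (0.0883%), with spacing 1 in 54 (0.164%) and with spacing 2 in 57 (0.174%). The search covered 16 windows of 8 members. A match describes letters in this window and is not evidence of binding in these cells.

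Values were on the log2 scale of the deposited table, so 1 unit is a doubling. The first replicates of the 5 days, whose titles carry no number, had a narrower spread of values (interquartile range 2.14 to 2.27) than replicates 2 and 3 (2.52 to 2.77), and 42.5% of the genes tested differed between those sets. The third P3 replicate stood apart as well, with a highest correlation to any other sample of 0.95 where the other samples had 0.969 to 0.99. Where a call named here rests on a block for these arrays, or on leaving them out, the outcome with day means alone is given as well. Of the cap mesenchyme markers 10 of 12 were lower at P4 than over P0 to P3, and of the renal vesicle markers 9 of 12 were higher (limma, adjusted over all genes tested). Of all genes tested 5.73% passed at P4 in either direction and 2.32% as falls.

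Uptake and transport gave no change past the test. Stra6, the retinol receptor, read 7.54, 7.75 and 8.06 at P0, 7.71, 7.91 and 7.95 at P1, 7.71, 7.83 and 7.81 at P2, 7.47, 7.75 and 7.65 at P3, and 7.59, 7.53 and 7.64 at P4. Its day means lay between 7.59 ± 0.05 (SD, n = 3) at P4 and 7.85 ± 0.13 (SD, n = 3) at P1, and the P4 pools lay within the range of the 12 cap mesenchyme pools. Against the mean of P0 to P3 the P4 value differed by -0.17 (95% interval -0.40 to 0.06, limma adjusted p = 0.563). Rbp4, the retinol carrier, was below the median of all values on all 15 arrays, with values from 5.51 to 6.14, and in a fit without the filter its P4 difference was -0.15 (95% interval -0.44 to 0.13). A probe set this dim gives little room to see a fall.

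**Figure D1:**
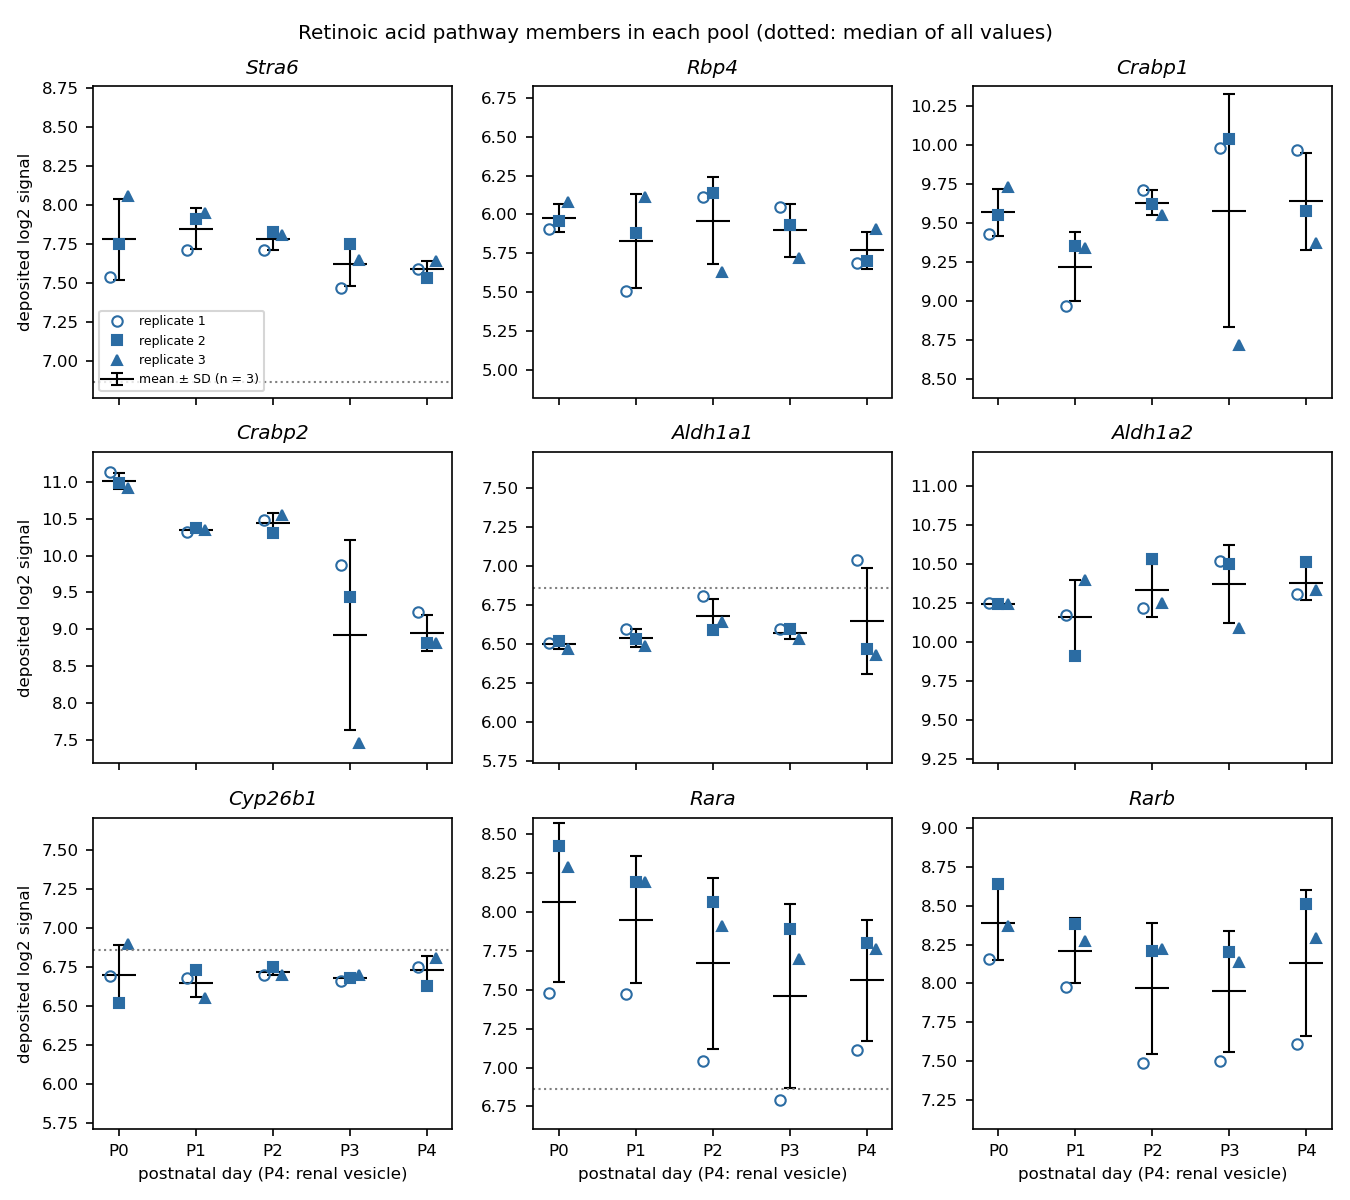
Deposited log2 signal (y axis) of the 9 members in each of the 15 pools by postnatal day (x axis), with each replicate as a symbol, the day mean and SD in black (n = 3), and the median of all values as a dotted line where it lies in the panel. Each panel has its own y range. Crabp2 stepped down from 11.01 at P0 to 8.95 at P4, the third P3 replicate read 7.46 for it, and the first replicates lay below the others on every day for Rara and Rarb.

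Crabp2 changed most among the members tested, by its range of day means, and was the member that changed with day means alone. This gene encodes a cytoplasmic protein known for carrying retinoic acid to the nuclear receptors. It read 11.13, 10.98 and 10.91 at P0, then 10.32, 10.37 and 10.34 at P1 and 10.48, 10.30 and 10.55 at P2. At P3 it read 9.87, 9.44 and 7.46, and at P4 9.23, 8.81 and 8.82. All 3 P0 pools lay above every later pool, the P1 and P2 pools overlapped, and the P3 and P4 pools all lay below those of P1 and P2 and overlapped each other. From P0 to P4 the day mean moved from 11.01 ± 0.11 to 8.95 ± 0.24 (SD, n = 3 each), a 4.16-fold lower signal.

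Crabp2 passed 3 of the 4 tests, and it was the 1 member that passed any of them with day means alone. It differed among the 5 days (limma F test, adjusted p = 0.0115), where 5.37% of the genes tested passed. Leaving out each pool in turn gave adjusted p-values from 1.6e-05 to 0.0421, so this call held in all 15 cases. Over P0 to P3 it fell by 0.62 per day on the log2 scale (SE 0.13, 95% interval -0.90 to -0.33, limma adjusted p = 0.0192), where 3.13% of genes passed in either direction and 1.48% as falls. At P4 it was 1.23 log2 units lower than the mean of P0 to P3, or 2.34-fold (SE 0.33, 95% interval -1.93 to -0.53, limma adjusted p = 0.0403), where 5.73% of genes passed and 2.32% as falls. The last step, P4 against P3, gave 0.03 (95% interval -0.86 to 0.92). For that step 0 of the 6 members passed in limma and 0 had an unadjusted p under 0.05, where 1.49% of genes passed. Its range of day means, 2.09, exceeded that of 99.4% of the genes that passed the filter.

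The third P3 replicate carried much of the spread of Crabp2. Its value there was 2.20 below the mean of the other P3 pools, 9.66. Without that pool the P4 difference was -1.41 (SE 0.12, limma adjusted p = 5.8e-06, where 6.48% of genes passed) and the slope -0.40 per day (limma adjusted p = 0.00133, where 1.91% passed), and the P4 minus P3 difference turned to -0.70 (limma adjusted p = 0.0652). With the first replicates as a block and that pool left out, the P4 minus P3 difference was -0.67 and passed (limma adjusted p = 0.00639, where 3.36% of genes did). The call at P4 was otherwise fragile. It was lost when any 1 pool other than P3 replicate 1 or P3 replicate 3 was left out, with adjusted p up to 0.198, and with replicates 2 and 3 only the difference stayed at -1.23 with a limma adjusted p of 0.0782. The slope lost its call when any of the 3 P0 pools was left out, with adjusted p up to 0.0627. The P4 difference was -1.22 within the first replicates and -1.23 within replicates 2 and 3.

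Crabp2 and the mean of the cap mesenchyme markers were both lower at P4 than at P0. Whether their steps differed was not tested. The Crabp2 mean changed by -0.66 from P0 to P1. From P3 to P4 it changed by 0.03 with the low P3 pool included and by -0.70 without it. The mean log2 level of the 12 cap mesenchyme markers was 9.62 to 10.19 at P0, 9.56 to 10.07 at P1 and 9.36 to 10.02 at P2. It was 8.87 to 9.06 at P3 and 7.89 to 8.07 at P4. Of those markers 0 had their lowest value in the third P3 replicate, a count that says little because 10 were lower at P4. Their mean in that pool, 8.87, was near those of the other P3 pools, 9.01 and 9.06. The mean of the 11 measured stroma markers was 7.68 to 7.79 at P0, 7.50 to 7.68 at P1 and 7.29 to 7.48 at P2. It was 7.20 to 7.50 at P3 and 7.31 to 7.46 at P4. In the third P3 replicate 4 of the 11 (Col1a1, Col1a2, Pdgfra and Dcn) had their lowest value of the 15 arrays, as did Crabp1 and Crabp2 among the members and 15.3% of all genes that passed the filter. The other stroma markers, Foxd1 and Tnc among them, did not. Of other lists, 2 of 10 ureteric bud, 1 of 11 proximal tubule and 1 of 8 endothelial markers were lowest there too. The part of these markers in the course of Crabp2 was not tested. Of the 10 stroma markers that passed the filter, 2 were lower at P4, where 2.32% of all genes tested were. Over P0 to P3, 3 of them fell, where 1.48% of all genes tested did. Markers of other cell types also moved at P4, where 5.73% of all genes tested passed in either direction. Of the markers that passed the filter, 4 of 5 loop of Henle and distal tubule and 3 of 4 podocyte markers were higher. So were 2 of 6 ureteric bud and 2 of 6 proximal tubule markers. The part of all these markers in the results at P4 was not tested. Of the 8 endothelial markers, Cldn5 alone passed the filter and was higher at P4 (1.56), and Pecam1, Kdr, Cdh5 and Tek were below the median of all values on all arrays.

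**Figure D2:**
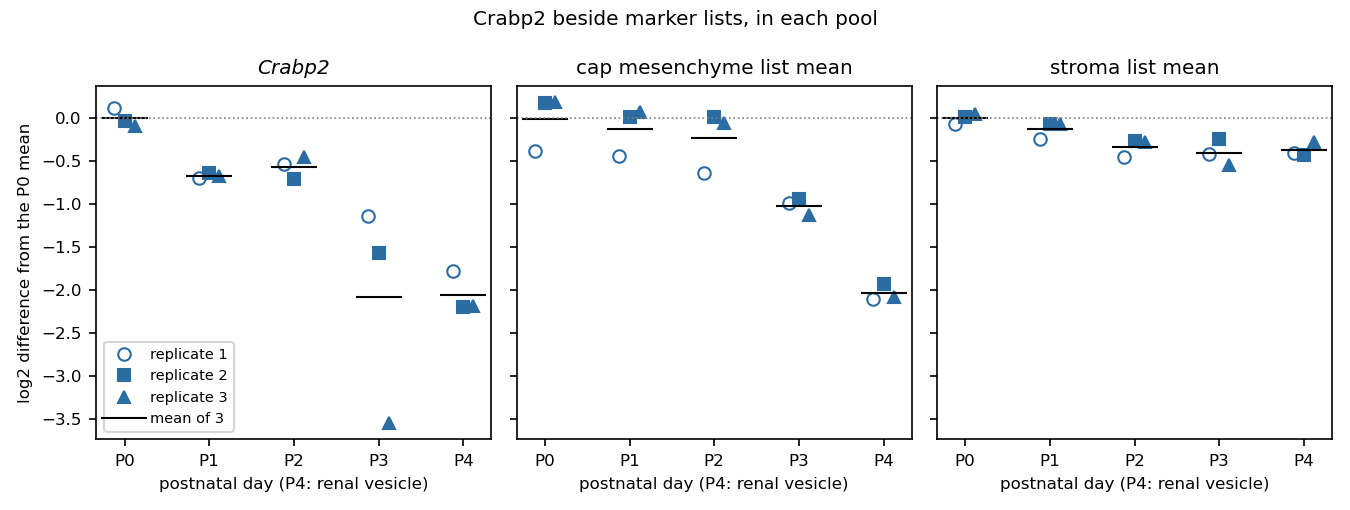
Log2 difference from the P0 mean (y axis) by postnatal day (x axis) for Crabp2, for the mean of the 12 cap mesenchyme markers and for the mean of the 11 stroma markers, with each pool as a symbol and the mean of 3 as a bar. Crabp2 was already lower at P1 (-0.64 to -0.69). In replicates 1, 2 and 3 the cap mesenchyme list stood at -0.38, 0.18 and 0.19 at P0 and at -0.44, 0.01 and 0.07 at P1. The third P3 replicate stood at -3.55 for Crabp2, -1.13 for the cap mesenchyme list and -0.54 for the stroma list.

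Crabp1, which encodes the sister binding protein, followed another course. It read 9.43, 9.55 and 9.73 at P0, 8.97, 9.35 and 9.34 at P1, 9.71, 9.62 and 9.55 at P2, 9.98, 10.04 and 8.72 at P3, and 9.97, 9.58 and 9.37 at P4. The third P3 replicate was again the low one, with a difference of -1.29 from the others of its day, and the other P3 pools were the highest of all 15. The P4 difference was 0.14 (95% interval -0.33 to 0.61, limma adjusted p = 0.92) and the slope 0.04 per day (95% interval -0.14 to 0.23, limma adjusted p = 0.943). Without the third P3 replicate the slope was 0.17 per day (95% interval 0.05 to 0.29, limma adjusted p = 0.178). With the first replicates as a block as well, Crabp1 differed among the 5 days (limma F test, adjusted p = 0.0344, range of day means 0.79, where 14.5% of genes passed), while the slope, 0.17, did not pass (limma adjusted p = 0.0548). With all 15 pools it did not differ among the days, either with day means alone or with that block (limma F test, adjusted p = 0.771 with the block). Whether Crabp1 and Crabp2 differ in their changes was not tested.

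Of the synthesis genes among the members, Aldh1a2 was tested and gave no change past the test. Aldh1a2, the main retinoic acid making enzyme of the embryo, read 10.25, 10.24 and 10.24 at P0, 10.17, 9.91 and 10.40 at P1, 10.22, 10.53 and 10.25 at P2, 10.52, 10.50 and 10.09 at P3, and 10.31, 10.51 and 10.33 at P4. The 3 P4 pools lay above the 3 P0 pools and inside the range of cap mesenchyme as a whole, 9.91 to 10.53. The P4 difference was 0.11 (95% interval -0.15 to 0.36, limma adjusted p = 0.863) and the slope 0.06 per day (95% interval -0.05 to 0.16, limma adjusted p = 0.781). Its range of day means, 0.22, exceeded that of 38.6% of the genes that passed the filter. Aldh1a1, a related dehydrogenase, was dim, from 6.43 to 7.04, and was above the median of all values only in the first P4 replicate (7.04), while the other P4 pools, at 6.47 and 6.43, lay below every cap mesenchyme pool before rounding (6.47 to 6.81). In the fit without the filter its P4 difference was 0.07 (95% interval -0.17 to 0.31).

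Cyp26b1, an enzyme that breaks retinoic acid down, was also dim. Its 15 values lay between 6.52 and 6.90, with day means from 6.65 at P1 to 6.73 at P4, and only the third P0 replicate was above the median of all values. Without the filter the P4 difference was 0.04 (95% interval -0.15 to 0.23). The other breakdown enzymes listed, Cyp26a1 and Cyp26c1, did not pass the filter either.

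The receptors Rara and Rarb fell over P0 to P3 in the fit with the replicate number as a block, and did not pass with day means alone. Rara read 7.48, 8.42 and 8.29 at P0, 7.47, 8.19 and 8.19 at P1, 7.04, 8.06 and 7.91 at P2, 6.79, 7.89 and 7.70 at P3, and 7.11, 7.80 and 7.76 at P4. The first replicate was the lowest pool of each day, and the fitted difference of the first replicates from the others was -0.84 (SE 0.07, limma adjusted p = 4.4e-07), where 33.9% of genes were lower in them. With day means alone the slope, -0.21 per day, did not pass (SE 0.11, 95% interval -0.45 to 0.03, limma adjusted p = 0.498). With the replicate number as a block it was the same size and passed (limma adjusted p = 7.4e-04), where 8.49% of genes passed and 4.48% as falls. With replicates 2 and 3 only, it was -0.19 per day and passed (limma adjusted p = 0.0393, where 3.37% of genes did). With the first replicates as a block Rara also differed among the 5 days (limma F test, adjusted p = 0.00235, where 11.7% of genes passed). That test did not pass with day means alone, nor with replicates 2 and 3 only (limma F test, adjusted p = 0.0814). The P3 mean minus the P0 mean was -0.69 in the first replicates and -0.56 in the others. At P4 Rara was -0.23 from cap mesenchyme (95% interval -0.82 to 0.37, limma adjusted p = 0.881), and with the first replicates as a block it did not pass either (limma adjusted p = 0.0912).

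Rarb, the receptor gene with the repeat printed above, read 8.16, 8.64 and 8.37 at P0, 7.98, 8.38 and 8.27 at P1, 7.49, 8.21 and 8.22 at P2, 7.50, 8.20 and 8.14 at P3, and 7.61, 8.51 and 8.29 at P4. The first replicates were again the lowest of each day, by -0.58 in the fit (SE 0.08, limma adjusted p = 6.4e-05). The slope was -0.16 per day (SE 0.08, 95% interval -0.33 to 0.02, limma adjusted p = 0.5), and it passed with the replicate number as a block (limma adjusted p = 0.0159). It did not pass with replicates 2 and 3 only, where it was -0.11 per day (limma adjusted p = 0.279). Unlike Rara, Rarb did not pass the test for any difference among the 5 days with the first replicates as a block (limma F test, adjusted p = 0.101). The P4 difference from cap mesenchyme was 0.00 (95% interval -0.44 to 0.45, limma adjusted p = 0.996). Of the 6 members tested, 1 (Crabp2) passed the slope test with day means alone and 3 passed with the replicate block, all as falls. Of all genes tested 1.48% fell in the first of these fits and 4.48% in the other.

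**Figure D3:**
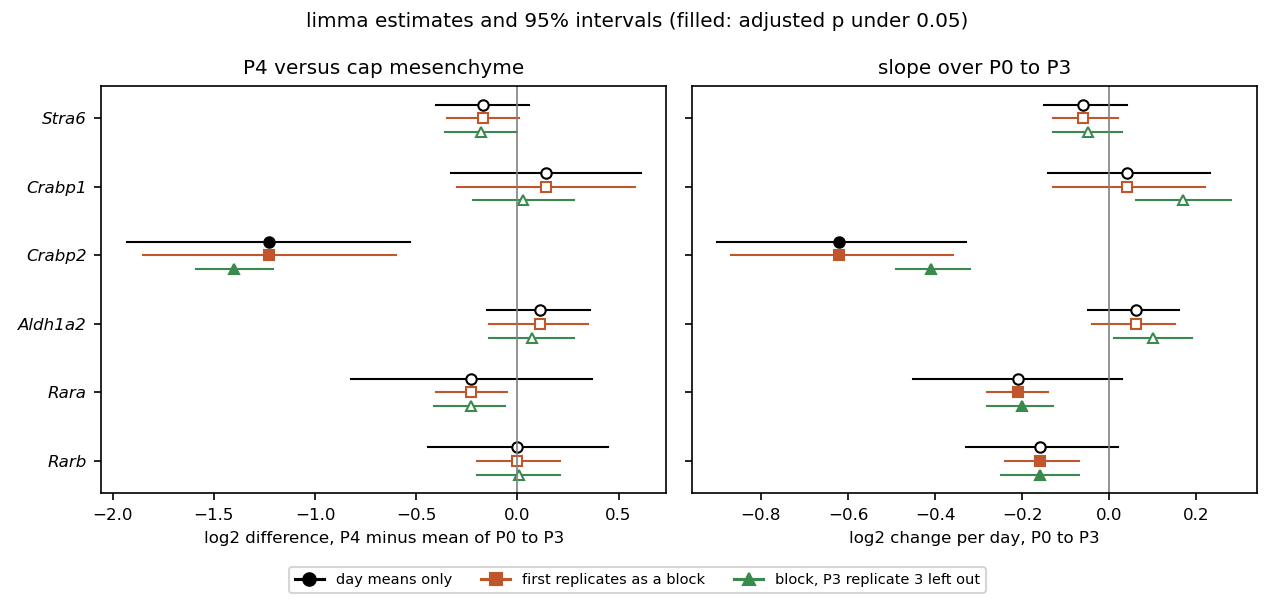
limma estimates with 95% intervals for the 6 members that passed the filter, as the log2 difference of P4 from the mean of P0 to P3 (left x axis) and the log2 change per day over P0 to P3 (right x axis). Circles use day means alone, squares add the first replicates as a block, triangles also leave out the third P3 replicate, and filled symbols have an adjusted p under 0.05. Crabp2 is filled throughout. Rara and Rarb are filled only for the slope, as squares and triangles but not as circles. Stra6, Crabp1 and Aldh1a2 are open in both panels.

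The genes around the members were read from lists of 64 further genes of retinoid transport, synthesis, breakdown, reception and response, of which 56 were measured and 32 passed the filter. At P4, 0 of the 32 were higher in limma and 5 lower (15.6%, against 5.73% of all genes tested), while 3 were higher and 7 lower at an unadjusted p under 0.05, and the median difference was -0.05 against 0.00 over all genes. With the first replicates as a block, 2 were higher and 6 lower at P4 (25.0%, against 11.5%). Over P0 to P3, 2 rose and 2 fell (12.5%, against 3.13%), and with the replicate number as a block 2 rose and 6 fell (25.0%, against 8.49%). Without the third P3 replicate, 0 were higher and 6 lower at P4 (18.8%, against 6.48%). Over P0 to P3, without that pool, 2 rose and 1 fell (9.38%, against 1.91%). The lists were chosen with earlier results of these data known.

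Among the synthesis genes beside the members, 8 of 20 listed and measured passed the filter. Of the 8, 2 were lower at P4 (2.32% of all genes tested were). Over P0 to P3 1 rose, where 3.13% of all genes tested passed in either direction. With the first replicates as a block 3 were lower at P4, where 11.5% of all genes tested passed in either direction. Adh1, named after its values were seen, was the further one (limma adjusted p = 0.0228, and 0.076 with day means alone). With the replicate number as a block 1 rose and 1, Dhrs3, fell over P0 to P3. In that fit 8.49% of all genes tested passed and 4.48% as falls. Dhrs3, an enzyme that returns retinaldehyde to retinol, read 9.53, 9.77 and 9.68 at P0, 10.00, 10.16 and 10.08 at P1, 8.99, 9.96 and 9.70 at P2, 8.70, 9.38 and 8.77 at P3, and 8.76, 8.68 and 9.03 at P4. Its P4 value was -0.74 from cap mesenchyme (SE 0.18, limma adjusted p = 0.0217), and P1 was the highest day. Its slope of -0.27 per day did not pass with day means alone (limma adjusted p = 0.0598) and passed with the replicate number as a block (limma adjusted p = 0.00652). Rdh10, which oxidises retinol to retinaldehyde, read 10.17, 10.43 and 10.61 at P0, 10.19, 10.31 and 10.46 at P1, 10.60, 11.01 and 10.87 at P2, 11.02, 11.03 and 10.74 at P3, and 10.53, 10.43 and 10.19 at P4. It rose by 0.21 per day over P0 to P3 (SE 0.05, limma adjusted p = 0.0312), and all 3 P4 pools lay below the P3 pools (difference -0.55, limma adjusted p = 0.137, and 0.0495 with the replicate number as a block, where 3.55% of genes passed). Rdh14, a related retinol dehydrogenase, was -0.71 from cap mesenchyme at P4 (SE 0.16, limma adjusted p = 0.0169), with P4 values of 7.25, 7.40 and 6.60.

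Of 16 further receptors and coregulators listed, 13 passed the filter, among them Rarg, Rxra and Rxrb. With day means alone 0 of them passed at P4 in limma, where 5.73% of all genes tested did. At an unadjusted p under 0.05, 2 were higher there. With the first replicates as a block 2 passed as rises, where 11.5% of all genes tested passed in either direction. Fabp5, which encodes a fatty acid binding protein that also binds retinoic acid, rose over P0 to P3 by 0.16 per day (SE 0.04, limma adjusted p = 0.0324), from 10.25, 10.24 and 10.03 at P0 to 10.70, 10.70 and 10.47 at P3. Its P4 values, 10.66, 10.82 and 10.54, lay above the P0 pools, and its P4 difference of 0.34 did not pass (limma adjusted p = 0.0558, and 0.0157 with the first replicates as a block). Over the 4 cap mesenchyme days Crabp2 fell and Fabp5 rose, each by its own test, and the difference between them was not tested.

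Genes known to respond to retinoic acid in other settings held 4 falls at P4 among the 10 that passed the filter, where 2.32% of all genes tested fell. Meis2, a homeobox gene, was -1.38 (SE 0.11, limma adjusted p = 2.1e-06) and was also lower at P4 than at P3 (-0.94, limma adjusted p = 0.0019). Meis1, its relative, was -0.78 (SE 0.14, limma adjusted p = 0.00273). Nr2f2, which encodes the nuclear receptor COUP-TFII, was -0.59 (SE 0.09, limma adjusted p = 7.8e-04), with P4 values of 10.30, 10.66 and 10.47 that lay below every cap mesenchyme pool. Dhrs3, described above, was the fourth. Over P0 to P3 2 fell with day means alone, where 1.48% of all genes tested did. They were Meis2 (-0.26 per day, limma adjusted p = 0.00312) and Rarres2, named after its values were seen (-0.37 per day, limma adjusted p = 0.0432). With the replicate number as a block 5 fell, where 4.48% of all genes tested did. The further ones were Dhrs3, Meis1 (-0.20 per day, limma adjusted p = 0.00785) and Egr1, an immediate-early gene also named after its values were seen (-0.33 per day, limma adjusted p = 0.0161). With day means alone these 3 slopes did not pass (limma adjusted p = 0.0598 for Dhrs3, 0.0683 for Meis1 and 0.203 for Egr1). Rarres2 read 6.69 in the third P3 replicate, its lowest value, and without that pool and without a block its slope of -0.24 did not pass (limma adjusted p = 0.103). Several of these genes also respond to other signals, and what drove them was not tested.

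**Figure D4:**
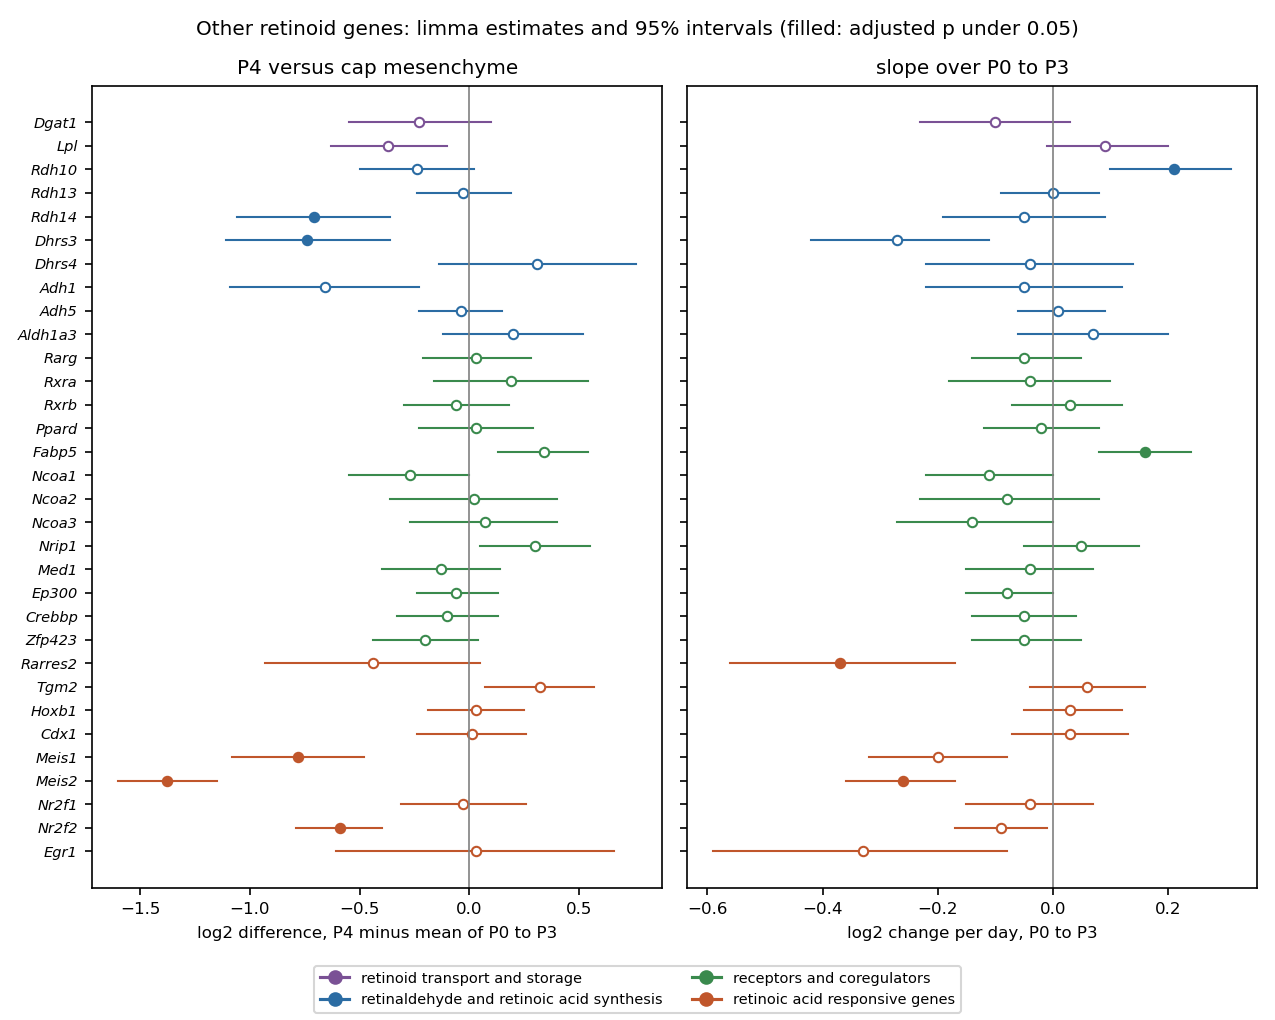
limma estimates with 95% intervals, with day means alone, for the 32 further retinoid genes that passed the filter, as the log2 difference of P4 from the mean of P0 to P3 (left x axis) and the log2 change per day over P0 to P3 (right x axis), coloured by list. Filled symbols have an adjusted p under 0.05: Rdh14, Dhrs3, Meis1, Meis2 and Nr2f2 on the left, all lower at P4, and Rdh10, Fabp5, Rarres2 and Meis2 on the right.

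The genes most like Crabp2 across the 15 pools, after the mean of the first replicates and of the other replicates was taken off, were Ramp2 (Pearson r = 0.956), Aprt (r = 0.947) and Lgals1 (r = 0.946). Ramp2 encodes a receptor activity modifying protein, Aprt an enzyme of purine salvage and Lgals1 the lectin galectin-1. Without the third P3 replicate the values were 0.927, 0.912 and 0.907. These correlations share the same arrays and the same low pool, and are a description. Ramp2 was itself lower at P4 (-0.92, limma adjusted p = 0.0447), while Aprt and Lgals1 did not pass at P4.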

How the data were processed

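The authors deposited 1 table of log2 values for 35557 probe sets in 15 samples, made per the labels with Affymetrix Expression Console from whole-transcript arrays after 1 round of WT-Ovation Pico amplification. Neither a software version nor a summarization method is stated in the sources, and no detection calls were used. Array medians lay between 6.80 and 6.92, and the values were used as deposited. Arrays have no read depth, and the number of pools limits the precision. Background left in the values would understate folds of dim genes.

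Probe sets with exactly 1 symbol (21789, for 19938 genes) were named through the platform table. For genes with several, the one with the highest mean was used. Levels were not compared between probe sets. limma 3.58.1 in R 4.3.3 was fitted to all 15 samples with a mean for each day (lmFit, eBayes), with Benjamini-Hochberg adjustment over the 11885 genes that passed the filter, a threshold of 0.05 and two-sided tests, after a check on simulated data. Tested were the P4 mean minus the average of the earlier day means, the linear change per day through P3, P4 minus P3, and an F test over the 5 days. Alternatives were another filter, another normalization, a robust trend, blocks for the replicate number or the first replicates, and left-out pools. The fit that combined the first replicates as a block with the third P3 replicate left out was chosen after seeing the data.

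Deviations of same-numbered samples from their day means correlated above 0.1 in 18 of 18 pairs over P0 to P3 (lowest 0.138) and in 3 of 3 pairs of P3 and P4. The replicate number was therefore used as a block there. The first replicates differed from the others for 42.5% of the genes tested, which could alone give such correlations. The check thus cannot show that same-numbered pools of different days were paired. The number is that of the sample titles, where the first carries none.

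The 9 members and all gene lists were chosen with earlier results of these data known. Genes named are the members, up to 4 passing genes of each list by smallest p, and, for members that passed the F test, the 3 genes of highest correlation, leaving out clone and predicted gene names. Adh1, Rarres2 and Egr1 were added after their values were seen. Sequences and positions of promoters are those of RefSeq on GRCm38.p6. Crabp2 has no entry in the promoter table used here. Some listed genes are not reported here.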

Additional observations from a re-analysis of the deposited data

How the results depend on the processing

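With day means alone, limma called 681 genes at P4 against cap mesenchyme, 372 for the slope, 177 for P4 against P3 and 638 for the F test. With the replicate block they were 1435 at P4 against cap mesenchyme, 1009 for the slope, 422 for P4 against P3 and 1483 for the F test, and with the first replicates as a block 1363, 918, 398 and 1386. With that block and the third P3 replicate left out they were 1810, 909, 399 and 1729. P4 against P3 gave 104 genes under the stricter filter and 41 with the P3 and P4 pools only. Leaving out each pool in turn gave 417 to 770 genes at P4, 183 to 381 for the slope, 99 to 187 for P4 against P3 and 462 to 653 for the F test. For P4 against cap mesenchyme, same-numbered samples correlated above 0.1 in 29 of 30 pairs (lowest correlation 0.0782), so the number was not taken as a pairing there. With the replicate block Crabp2 passed at P4 (limma adjusted p = 0.00936). Without the filter Crabp2 at P4 did not pass (limma adjusted p = 0.0559).

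Directions turned where the difference in the main setting was small and did not pass, though some were larger in the alternatives. With replicates 2 and 3 only, Crabp1 was -0.02 at P4 and -0.06 for the slope, and Rara -0.02 for P4 minus P3. Rarb at P4 was -0.01 after quantile normalization and -0.03 after centring, and centring gave -0.02 for Crabp2 and -0.04 for Aldh1a2 in P4 minus P3. With the first replicates as a block and the third P3 replicate left out, P4 minus P3 was -0.37 for Crabp1, -0.67 for Crabp2 and -0.14 for Aldh1a2. Of these, Crabp2 passed (limma adjusted p = 0.00639). Leaving out each pool in turn, P4 minus P3 ranged from -0.11 to 0.03 for Stra6, -0.37 to 0.29 for Crabp1, -0.70 to 0.50 for Crabp2, -0.13 to 0.09 for Aldh1a2, -0.24 to 0.32 for Rara and -0.04 to 0.45 for Rarb. The P4 difference ranged from -0.03 to 0.28 for Crabp1 and -0.18 to 0.27 for Rarb, and the slope of Crabp1 from -0.03 to 0.17. The causes were not tested.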
